A study of Mus musculus with 4 samples.

Results

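A set of 10 genes that mark the hippocampus and the medial pallium were followed in mouse dorsal cortex at E18.5 (embryonic day). They are Wnt8b, Lef1, Zbtb20, Prox1, Lhx9, Nr3c2, Wfs1, Fibcd1, Grp and Cadps2, and all 10 were found by gene symbol among the 19938 genes with a feature of their own on the array. Where a gene had several features, the one with the highest mean over the 4 arrays was taken. The mutant embryos (2 arrays) carried Mek1 fl/fl and NestinCre and were Mek2-/-. The controls (2 arrays) carried Mek1 fl/wt, were Mek2-/- as well, and are labelled with no Cre. MEK1 and MEK2 are the kinases that activate ERK1 and ERK2, and in NestinCre mice the Nestin promoter and enhancer drive Cre in neural and glial precursors. Loss of Mek2 is therefore shared by both groups, and the transgene and the loss of Mek1 cannot be told apart. The study's design text calls the controls WT. The labels do not say how the medial edge of the dorsal cortex was cut, or which embryos shared a litter.

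The hippocampus forms from the medial wall of the cortical vesicle, beside the cortical hem, a strip of cells that secretes Wnt and BMP proteins. Wnt signals act through beta-catenin, which binds LEF1 and the related TCF factors on DNA and switches on their targets. In the mouse, loss of this pathway in the medial wall prevents a normal dentate gyrus and hippocampus from forming. Transcription factors such as ZBTB20 and PROX1 then give the pyramidal neurons of the CA fields and the granule neurons of the dentate gyrus their identity. These genes are not confined to the hippocampus: Zbtb20 is also active in astrocytes, Prox1 in some interneurons and in the thalamus, Lhx9 in the thalamus and Lef1 in brain endothelium.

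A promoter window is shown for each motif tied to this biology whose letters occur in a member's window, so that the letters can be read in place. The windows are those of RefSeq on GRCm38.p6, from 250 bases before to 50 after a transcription start. For the members, 13 windows matched 9 of the 10, with none kept for Grp. The member search left out a chromosome that the count over all windows kept. A Grp window on that chromosome would have been dropped, so its absence is not a result. The member counts and the shares over all windows come from unlike sets. The 4 motifs searched, on both strands, were CTTTGA for LEF and TCF factors, TAATTA for homeodomain factors, CAGATG for neurogenic bHLH factors and CCGGAAG for the ETS factors that ERK acts on. In the windows printed no match overlaps another. The windows are chr3:131156044-131156343 for Lef1 (plus strand, a start within the gene), chr1:190170778-190171077 for Prox1 (minus strand) and chr19:44493222-44493521 for Wnt8b (plus strand), each read 5′ to 3′ along the gene with the motif in capitals.
Lef1: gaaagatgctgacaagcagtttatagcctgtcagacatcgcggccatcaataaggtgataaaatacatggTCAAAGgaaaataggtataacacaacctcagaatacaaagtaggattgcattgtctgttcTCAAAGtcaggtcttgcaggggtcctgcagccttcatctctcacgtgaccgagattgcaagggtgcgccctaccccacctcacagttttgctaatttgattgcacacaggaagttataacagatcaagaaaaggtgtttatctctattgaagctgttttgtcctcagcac
Prox1: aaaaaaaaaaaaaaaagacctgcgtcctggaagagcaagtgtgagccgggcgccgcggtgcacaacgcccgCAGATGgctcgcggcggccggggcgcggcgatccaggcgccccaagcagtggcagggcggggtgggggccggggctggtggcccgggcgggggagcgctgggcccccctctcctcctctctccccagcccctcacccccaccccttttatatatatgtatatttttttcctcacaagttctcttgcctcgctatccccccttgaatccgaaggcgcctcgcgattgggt
Wnt8b: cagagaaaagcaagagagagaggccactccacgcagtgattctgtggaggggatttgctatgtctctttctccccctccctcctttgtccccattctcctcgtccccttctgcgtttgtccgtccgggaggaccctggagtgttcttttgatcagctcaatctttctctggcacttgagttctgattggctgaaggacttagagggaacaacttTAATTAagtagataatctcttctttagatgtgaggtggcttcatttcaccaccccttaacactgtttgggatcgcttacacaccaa
The Lef1 window holds 2 copies of the LEF and TCF letters in reverse (TCAAAG), beginning 180 and 120 bases before the start. They occurred in 1 of the 13 member windows and in 5257 of all 32851 windows (16%). The Prox1 window holds CAGATG 179 bases before its start. That motif occurred in 3 of the 13 member windows, in Prox1, Lef1 and Wfs1, and in 17.2% of all windows. The Wnt8b window holds TAATTA 36 bases before its start. The homeodomain letters occurred in 1 of 13 member windows and in 5.29% of all windows. The ETS letters occurred in 0 of 13 and in 8.86% of all. These matches describe the letters only.

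Values are log2 expression as the authors deposited them, after RMA, a procedure that corrects background and brings the arrays to a common distribution. The number of arrays limits the precision, and the values carry no detection call. Genes whose mean fell under log2 6.16 were left out as dim, and 13956 genes were tested with limma, p-values being adjusted by the Benjamini-Hochberg method. Dorsal cortex markers were well above that level on every array: Emx1, a homeodomain factor of the dorsal pallium, lay at 8.68 and 8.85 in mutants and at 8.79 and 8.66 in controls. Map2k1, which encodes MEK1, was at 8.50 and 8.73 in mutants and at 8.76 and 8.84 in controls (difference -0.19, adjusted p = 0.469 in limma). Map2k2 was at 8.57 and 8.64 in mutants and at 8.57 and 8.47 in controls. Neither value checks the labels, because the labels do not say which probes lie in the deleted parts. The arrays of mutant 1 and mutant 2 differed by a root mean square of 0.191 over the genes tested, against 0.149 for the 2 controls. Mutant 1 also lay further from the controls (0.230 and 0.221) than mutant 2 did (0.178 and 0.191), so each result is given for each mutant array as well. Xist, which is transcribed from the inactive X chromosome, stood at 4.81 in mutant 1, 11.9 in mutant 2, 11.9 in control 1 and 5.35 in control 2, so each group held 1 male and 1 female sample.

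None of the hippocampal and medial pallium genes passed the test, and their values were further from the controls on mutant 1 than on mutant 2. Of the 10 members 9 were bright enough to be tested, and 0 of 9 were called at an adjusted p under 0.05 in limma, where 1.02% of all genes tested were called (1.01% lower and 0.0143% higher). At an unadjusted p under 0.05 in limma there were 2 of 9, Grp and Lef1, where 13.4% of all genes lay under it. In mutant 1, 9 of the 10 members had their lowest value of the 4 arrays, among them 8 of the 9 tested, where 37.8% of all genes tested were lowest there. In mutant 2, 5 of the 10 lay within or above the range of the controls, among them 4 of the 9 tested, where 69.5% of all genes tested did so. The other 5 members tested lay under both controls in mutant 2, where 30.5% of all genes did. The median of the 9 tested members was 0.45 under the control mean in mutant 1 (-0.45) and close to it in mutant 2 (-0.04). Over all genes tested the medians were -0.01 in mutant 1 and 0.02 in mutant 2. The median difference of mutant and control means was -0.29 for the members and 0.01 for all genes tested. The mean was lower in mutants for 8 of 9 members and for 47.6% of all genes tested, and 4 of 9 members differed by at least 0.3 in size, against 5.3% of all genes. The groups did not overlap for 5 of 9 members and for 44.3% of all genes. Both mutants lay under both controls for those 5, as for 21.4% of all genes, and above both controls for 0 of 9, as for 22.8%. In bulk tissue, fewer cells of a type and less RNA per cell cannot be told apart.

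**Figure D1:**
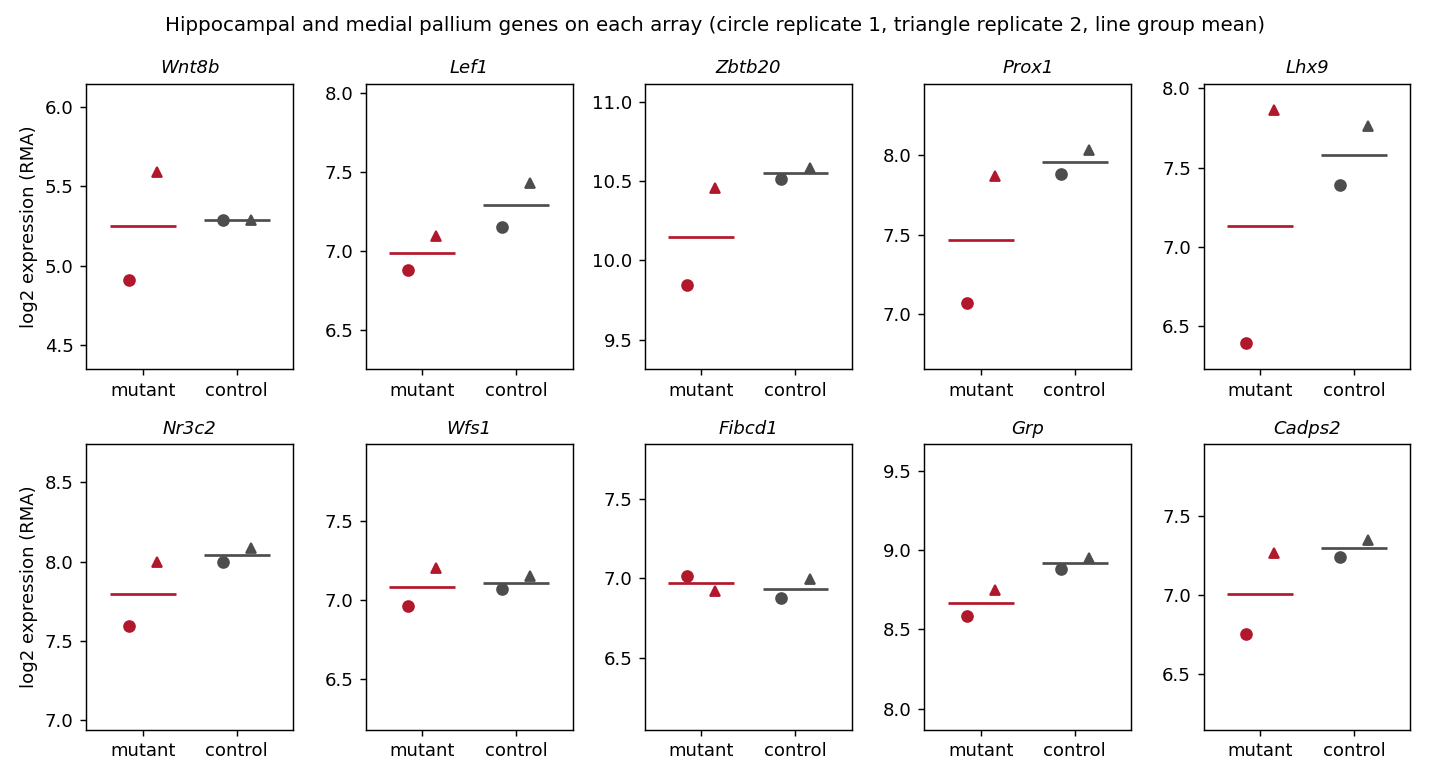
Log2 expression (RMA) of the 10 genes on each array, with mutants at the left and controls at the right of each panel (circles replicate 1, triangles replicate 2, lines group means, n = 2). The circle of mutant 1 is the lowest point in every panel except that of Fibcd1, and the triangle of mutant 2 lies within or above the control range in 5 of the 10.

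The ligand Wnt8b, a Wnt protein of the cortical hem and the hippocampal neuroepithelium, was dim on all arrays. It stood at 4.91 in mutant 1 and 5.59 in mutant 2, against 5.29 in both controls. All 4 values lay under the level at which genes were left out, so it was not tested, and the mutants lay on opposite sides of the controls. Its mean was 5.25 ± 0.48 in mutants and 5.29 ± 0.00187 in controls (SD, n = 2 each).

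Lef1, the DNA-binding partner of beta-catenin, without which mouse embryos lack dentate granule neurons, had 6.88 and 7.09 in mutants, against 7.15 and 7.43 in controls. The groups did not overlap, although the gap between mutant 2 and control 1 was small beside that between the controls. The difference was -0.31 ± 0.12 (SE), 1.24-fold lower in mutants (adjusted p = 0.373 in limma). The 95% interval ran from -0.61 to -0.00015. Taken one by one, mutant 1 was 0.41 under the control mean (-0.41) and mutant 2 was 0.20 under it (-0.20). The control gap of Lef1 was 0.28 (control 1 minus control 2, -0.28), larger in size than that of 97.3% of the genes tested.

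Zbtb20 encodes a zinc finger repressor required for CA1 pyramidal identity in the mouse. It was at 9.85 and 10.45 in mutants, against 10.52 and 10.58 in controls. Mutant 1 was the low array, whereas mutant 2 lay just under control 1. The mean was 10.15 ± 0.43 in mutants and 10.55 ± 0.05 in controls (SD, n = 2 each), a difference of -0.40 ± 0.20 (SE; adjusted p = 0.462 in limma). The dimmer of the 2 Zbtb20 features gave 9.20 and 9.78 in mutants, against 9.94 and 10.03 in controls, a difference of -0.50. Both features thus gave the same order of arrays. Mutant 1 differed from the control mean by -0.70 and mutant 2 by -0.10 on the brighter feature, and by -0.79 and -0.21 on the dimmer one.

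Prox1, the homeodomain factor of dentate granule neurons, had the largest mean difference of the members tested. Its values were 7.07 and 7.87 in mutants, against 7.88 and 8.04 in controls. The groups did not overlap, but mutant 2 and control 1 were almost equal and the separation came from mutant 1. The difference was -0.49 ± 0.26 (SE), 1.404-fold lower in mutants, with a 95% interval from -1.14 to 0.16 and an adjusted p of 0.498 in limma. Without mutant 1 it was -0.09 (adjusted p = 0.70 in limma), and without mutant 2 it was -0.89 (adjusted p = 0.00364 in limma, with the lone array assumed to vary as the controls do).

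Lhx9, a LIM homeodomain factor of the medial pallium, was the most divided between the mutants. It stood at 6.40 in mutant 1 and 7.86 in mutant 2, against 7.39 and 7.76 in controls. Mutant 1 was the lowest array and mutant 2 the highest, so the groups overlapped. The mutant mean was 7.13 ± 1.04 and the control mean 7.58 ± 0.26 (SD, n = 2 each). The difference of -0.45 ± 0.47 (SE; adjusted p = 0.755 in limma) is smaller than the SD of the mutants, and its interval from -1.63 to 0.73 allows a change in either direction. The gap between mutant 1 and mutant 2 was -1.47, at rank 8 of the most negative among the 13956 genes tested. Its controls also differed by -0.37 (control 1 minus control 2), a gap larger in size than that of 99.2% of the genes tested.

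Nr3c2 encodes the mineralocorticoid receptor, a steroid-activated transcription factor abundant in hippocampal pyramidal neurons. It had 7.5936 and 7.9994 in mutants, against 7.9999 and 8.0867 in controls. Mutant 2 and control 1 were almost equal, and mutant 1 was lower. The difference was -0.25 ± 0.14 (SE; adjusted p = 0.525 in limma), made up of -0.45 in mutant 1 and -0.04 in mutant 2.

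Of the members tested, Wfs1 and Fibcd1, both markers of CA1 pyramidal neurons, differed least. Wfs1, the endoplasmic reticulum membrane protein wolframin, was at 6.96 and 7.20 in mutants, against 7.07 and 7.15 in controls. Fibcd1, a membrane receptor with a fibrinogen-like domain, was at 7.02 and 6.92 in mutants, against 6.87 and 7.00 in controls. The groups overlapped for both genes. Wfs1 differed by -0.03 ± 0.09 (SE; adjusted p = 0.947 in limma) and Fibcd1 by 0.03 ± 0.07 (SE; adjusted p = 0.909 in limma). The 95% interval of the mutant to control ratio ran from 0.831 to 1.16 for Wfs1 and from 0.901 to 1.16 for Fibcd1. Fibcd1 was the only member whose lowest array was not mutant 1. Both genes are best known from the postnatal hippocampus, and how much of their signal is background was not tested.

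The remaining members act in peptide signalling and secretion. Grp, the neuropeptide gastrin-releasing peptide, was at 8.58 and 8.75 in mutants, against 8.88 and 8.95 in controls. Here both mutants were lower than both controls. The gap between the mutants (-0.16) was nevertheless larger in size than that of mutant 2 minus control 1 (-0.13). The difference of -0.25 ± 0.08 (SE), 1.19-fold lower in mutants, had the smallest p of the members but did not pass after adjustment (adjusted p = 0.261 in limma). Its 95% interval, from -0.45 to -0.06, did not include 0. Cadps2, a priming factor for the release of dense-core vesicles, was at 6.75 and 7.26 in mutants, against 7.24 and 7.35 in controls. Mutant 2 lay between the controls and only mutant 1 was lower. The difference was -0.29 ± 0.17 (SE; adjusted p = 0.543 in limma).

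**Figure D2:**
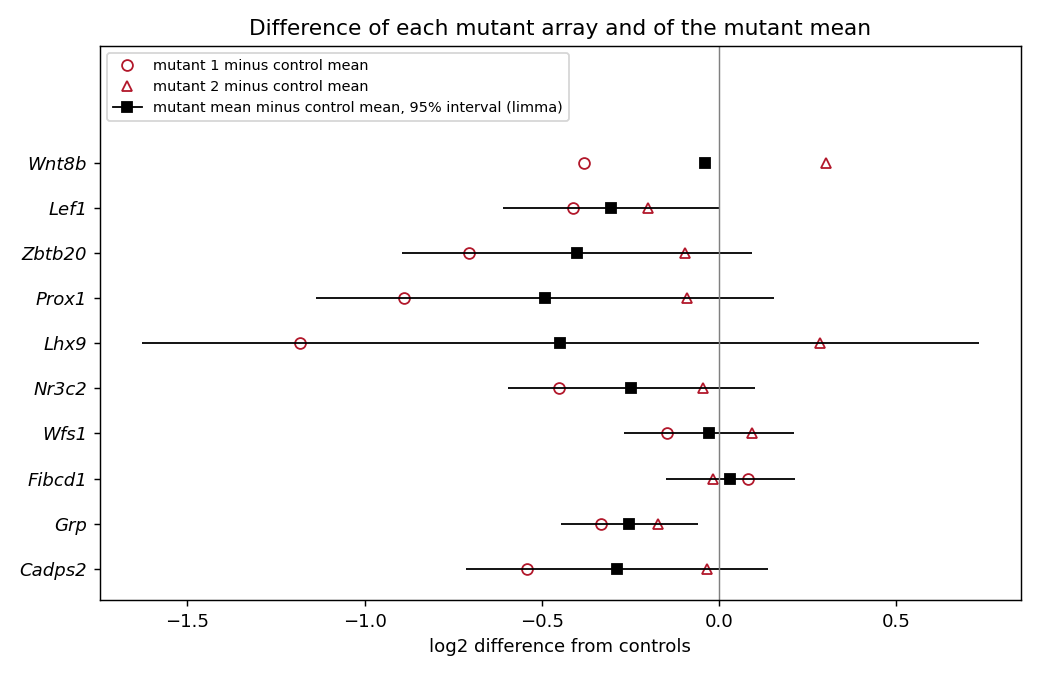
Difference from the control mean on the log2 scale for mutant 1 (open circles), mutant 2 (open triangles) and the mean of both (squares, with the 95% interval from limma; Wnt8b was not tested). The intervals of Lef1 and Grp do not reach 0, and for Lhx9 the mutants lie at -1.18 and 0.29.

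The members showed 3 patterns, grouped after their values were seen and given with no test. For Grp and Lef1 each mutant was lower than the control mean by at least 0.17 (mutant 2 for Grp, -0.17). Zbtb20, Prox1, Nr3c2 and Cadps2 were lower in mutant 1 by between 0.45 (Nr3c2, -0.45) and 0.89 (Prox1, -0.89), while mutant 2 lay within 0.10 of the control mean (Zbtb20, -0.10). Lhx9 and Wnt8b were lower in mutant 1 and higher in mutant 2, and Wfs1 did the same on a smaller scale (-0.15 and 0.09). Fibcd1 showed none of these.

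The gap between the mutants was wide for these genes beside the rest of the array, though genes of other lists also showed such gaps. Mutant 1 was lower than mutant 2 by at least 0.4 in 5 of the 9 members tested, Lhx9, Prox1, Zbtb20, Cadps2 and Nr3c2, and in 264 of all 13956 genes (1.89%). The median gap was -0.41 for the members and -0.04 for all genes. For Prox1 the gap was -0.80 and for Zbtb20 -0.61, larger in size than those of 99.6% and 99.3% of the genes tested. Between the controls, Prox1 differed by -0.16 and Zbtb20 by -0.07. All 10 members were lower in control 1 than in control 2, as were 49.6% of all genes tested. The gap between the controls was smaller in size than that between the mutants for Zbtb20, Prox1, Lhx9, Wfs1, Nr3c2, Grp and Cadps2. For Lef1 it was larger (-0.28 between controls, -0.21 between mutants), and for Fibcd1 the gaps ran opposite ways (0.10 between mutants, -0.12 between controls). The mutant of each sex was set against the control of that sex, with 1 array on each side and no test. In the male pair, mutant 1 minus control 2, the differences ran from -1.37 for Lhx9 to 0.02 for Fibcd1, and 8 of 9 were negative. In the female pair, mutant 2 minus control 1, they ran from -0.13 for Grp to 0.47 for Lhx9, and 5 of 9 were negative.

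**Figure D3:**
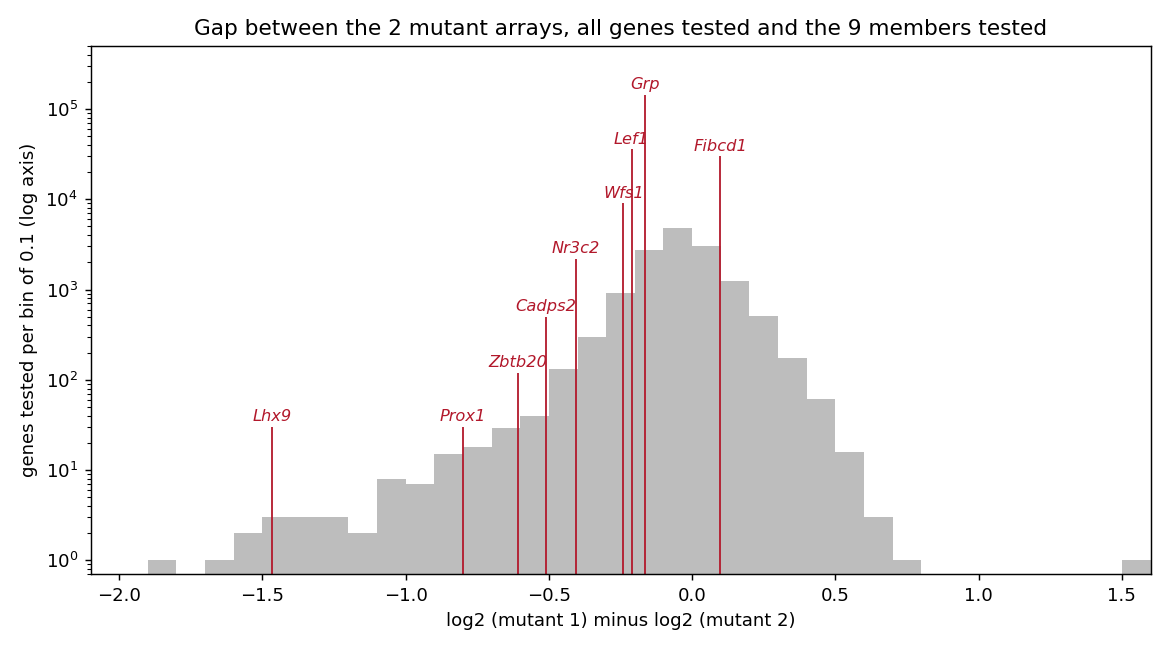
Number of genes (log axis, bins of 0.1) by their log2 value in mutant 1 minus that in mutant 2, for the genes tested (4 sex-linked genes lie outside the axis), with the 9 members marked by red lines whose height carries only the label. Lhx9 (-1.47), Prox1 (-0.80) and Zbtb20 (-0.61) lie in the sparse left tail, and Fibcd1 (0.10) is the only member to the right of 0.

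Pallial patterning factors, hem and medial signals and Wnt pathway genes were followed by lists, which are not confined to the medial pallium. Of 15 pallial patterning factors tested, 1 was called, lower, and the list's median difference was -0.20 (-0.26 in mutant 1 and -0.08 in mutant 2). The gene called was Gli3, a zinc finger effector of Hedgehog signalling needed for the cortical hem. It was at 6.73 and 6.83 in mutants, against 7.71 and 7.50 in controls (difference -0.83, adjusted p = 0.0291 in limma). Tfap2c, an AP-2 factor of cortical progenitors, differed by -0.38 (adjusted p = 0.141 in limma). Of 14 hem and medial signals tested, none was called (median -0.05; -0.02 in mutant 1 and -0.13 in mutant 2), and the smallest p belonged to genes that went opposite ways. Rspo2, a secreted enhancer of Wnt signalling, was at 8.59 and 8.50 in mutants, against 8.19 and 7.99 in controls (0.46, adjusted p = 0.113 in limma). Id3, a target of BMP signalling, was at 6.96 and 7.45 in mutants, against 7.90 and 7.79 in controls (-0.64, adjusted p = 0.205 in limma). Of 27 Wnt receptors, LEF and TCF factors and targets tested, none was called (median -0.02). The smallest p were those of Ccnd1, the cell cycle target cyclin D1 (-0.75, adjusted p = 0.0790), and Znrf3, an inhibitor of Wnt receptors (-0.35, adjusted p = 0.0797), both in limma.

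Genes of hippocampal neurons were followed by further lists, which likewise are not confined to the hippocampus. Of 22 dentate granule lineage genes on the array 18 were bright enough to be tested. For the CA fields and subiculum it was 23 of 26. None of these was called in limma. The dentate list had a median difference of -0.09, with -0.18 in mutant 1 and 0.04 in mutant 2. Its smallest p belonged to Pdzd2, a PDZ domain protein (0.29, adjusted p = 0.281), and Cxcr4, the chemokine receptor of migrating granule precursors (-0.17, adjusted p = 0.308), in limma. The CA and subiculum list had a median of -0.02. Its smallest p belonged to Ociad2 (-0.32, adjusted p = 0.0934) and the ETS factor Etv1 (-0.43, adjusted p = 0.0943), in limma. Neocortical projection neuron genes had a median of 0.16, with 0.19 in mutant 1 and 0.11 in mutant 2, and 0 of 19 were called. Their smallest p belonged to Hs3st4, a heparan sulfate enzyme of deep layers (0.45, adjusted p = 0.0648 in limma), and Nfe2l3 (0.38, adjusted p = 0.136 in limma).

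Cell types and neighbouring tissue that also express the members were measured beside them. Of 19 astrocyte and radial glia genes tested, 8 were called in limma, all lower, and 11 were not, and the median was -0.78 in mutant 1 and -0.37 in mutant 2. Their linear values summed to 13371 and 15886 in mutants, against 26702 and 26986 in controls. Among them, the glutamate transporter gene Slc1a3 was at 8.84 and 8.89 in mutants, against 10.35 and 10.43 in controls (-1.53). The glycolytic enzyme gene Aldoc differed by -1.53, the fatty acid binding protein gene Fabp7 by -1.60 and the folate enzyme gene Aldh1l1 by -1.44. Acsbg1, an acyl-CoA synthetase gene, differed by -1.70 and Tnc, the matrix protein tenascin C, by -2.21. For these 6 genes the adjusted p in limma ran from 0.00538 to 0.0135. The mutants were close together for Slc1a3, whereas other genes of the list differed between them: Gja1, a gap junction gene, was at 8.29 and 9.30 in mutants, against 9.57 and 9.59 in controls. Mutant 1 was lower than mutant 2 for 17 of the 19 genes, where 64.07% of all genes tested were. Zbtb20 is active in astrocytes, and the part of these cells in its difference was not tested.

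Endothelial genes, whose list holds Lef1, had 0 of 16 called, and their linear values summed to 4842 and 5701 in mutants, against 5536 and 5610 in controls. Beside Lef1, the smallest p was that of Mfsd2a, a lipid transporter of the blood-brain barrier (-0.36, adjusted p = 0.218 in limma). Thalamus and habenula genes, whose list holds Prox1 and Lhx9, had 0 of 13 called and summed to 2534 and 3242 in mutants, against 2964 and 3206 in controls. Their smallest p were those of the forkhead factor Foxp2 (0.33, adjusted p = 0.291) and of Tcf7l2 (-0.26, adjusted p = 0.372), a TCF factor, in limma. Interneuron genes, whose list also holds Prox1, had 0 of 17 called and summed to 10304 and 12489 in mutants, against 11263 and 11946 in controls. The neuropeptide gene Npy differed by 0.30 (adjusted p = 0.324) and the homeodomain factor gene Dlx1 by -0.16 (adjusted p = 0.461), in limma. Cajal-Retzius genes, with 0 of 10 called, summed to 5507 and 6201 in mutants, against 6102 and 6137 in controls. Of these, Ndnf differed by -0.27 (adjusted p = 0.334) and Reln, the secreted guidance protein reelin, by -0.17 (adjusted p = 0.489), in limma. In the glial list and in each of these 4 lists the sum was lowest on mutant 1. That was also so for the 9 members tested, whose sum was 2195 and 3113 in mutants, against 3140 and 3388 in controls. Bright genes weigh most in such sums. The endothelial, thalamus and interneuron lists also hold members, so their sums are not independent of those of the members. The sum over all genes tested was also lowest on mutant 1, at 8733310 and 9051030 in mutants, against 8887350 and 8927920 in controls.

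In the choroid plexus list 6 of 14 genes were bright enough to be tested and 0 were called. They summed to 1005 and 1044 in mutants, against 881 and 1475 in controls. The carrier protein gene Ttr was at 6.50 and 7.17 in mutants, against 6.67 and 9.15 in controls. The high array for Ttr was control 2. Foxj1, a factor of ciliated cells, differed by 0.15 (adjusted p = 0.353) and the folate receptor gene Folr1 by -0.12 (adjusted p = 0.527), in limma. Striatal genes had 0 of 11 called and a median of 0.16, with the smallest p for Ppp1r1b, a dopamine-regulated phosphatase inhibitor (0.52, adjusted p = 0.122), and Rgs9 (0.18, adjusted p = 0.312), in limma. Meningeal genes had 0 of 10 called and a median of 0.06. The zinc finger factor gene Zic1 differed by -0.54 (adjusted p = 0.191) and the collagen gene Col3a1 by 0.14 (adjusted p = 0.405), in limma. The part of these cells and tissues in the differences of the members was not tested.

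**Figure D4:**
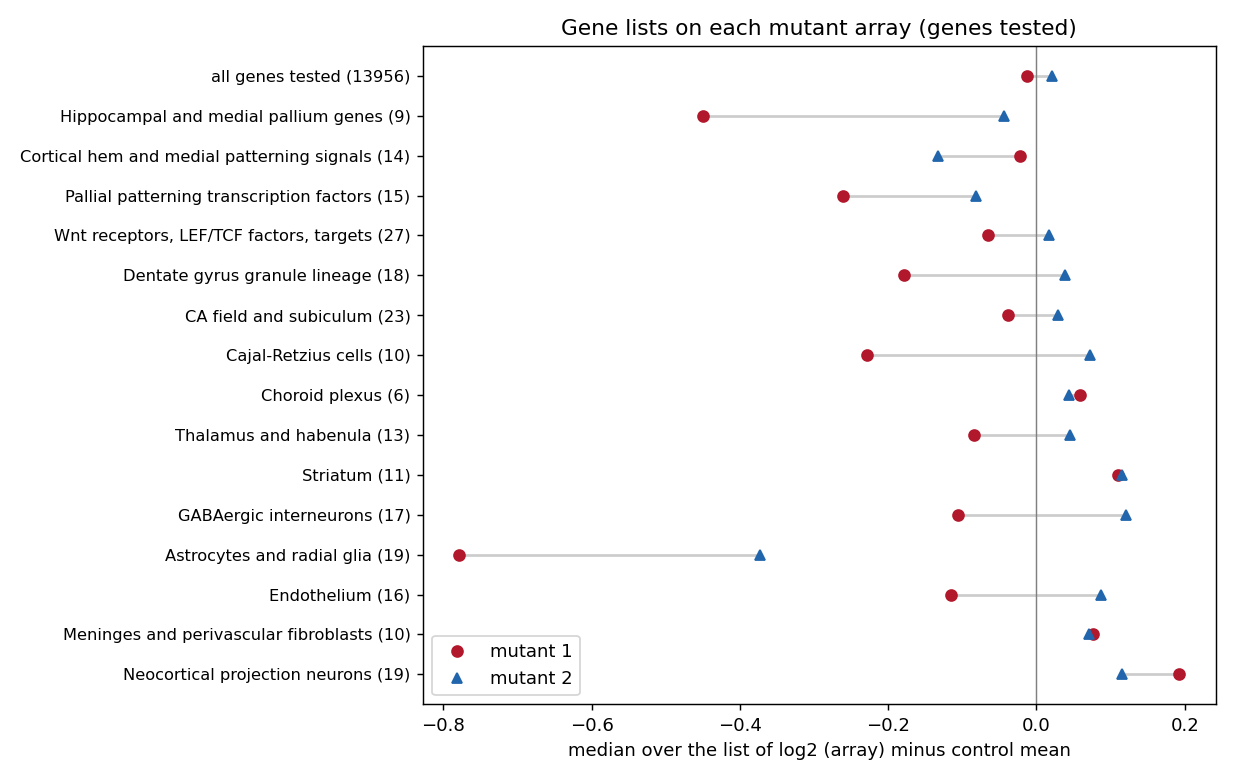
Median over each gene list of the log2 value on mutant 1 (circles) and mutant 2 (triangles) minus the control mean, with the number of genes tested in brackets. The members lie at -0.45 and -0.04, astrocyte and radial glia genes at -0.78 and -0.37, and neocortical neuron genes at 0.19 and 0.11.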

How the data were processed

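Dorsal cortex RNA from 2 mutant and 2 control samples was measured on single-colour whole-transcript arrays. The authors deposited log2 expression values made with RMA, per the submitters' processing notes (version, software and build: not given in the sources used here). Base 2 follows from the value range. RMA equalises the arrays and compresses differences of dim genes. Features with 1 gene symbol (21789 of 35557) were kept, symbols were updated by Entrez identifier through RefSeq (GRCm38.p6; 21698 matched), and the brightest feature per gene was used (19938 genes). Genes under the 30th percentile of the mean (log2 6.16) were left out. Mutants were compared with controls in limma 3.58.1 (R 4.3.3; lmFit, eBayes, no covariate) over 13956 genes, with Benjamini-Hochberg adjustment and calls at 0.05; the fit had 2 residual and 3.31 prior degrees of freedom. With 2 arrays a group, an exact two-sided permutation test cannot give a p under 0.333. P-values measure the spread between these samples, which may be technical. The limma procedure was tested on data simulated with the variance model that it assumes, which cannot check an outlying array. It recovered 56.1% of genes given a difference of 0.5 and 94.5% of those given 1. All members were named, and of each other list the genes called (up to 6) or otherwise the 2 with the smallest p. Emx1, Ttr, Gja1 and Xist were named outside that rule, as were the genes under Other observations that were chosen after their values were seen. The members, lists and motifs were chosen with earlier results of these data known. The alternatives were other filters, feature choice, variance trend, scaling, a replicate block, sex, and leaving out each array.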

Additional observations from a re-analysis of the deposited data

How the results depend on the processing

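The count of 0 members called held under 12 of 13 alternatives; without mutant 2 it was 5 (Zbtb20, Prox1, Lhx9, Nr3c2 and Cadps2), so leaving out 1 array gave 0 to 5. Members without overlap ranged from 6 to 9 when 1 array was left out, where 67.1% to 78.3% of all genes did not overlap. Of these, 2 of the 7 without mutant 1, 1 of the 9 without mutant 2 and 1 of the 6 without control 2 were higher in mutants. After further quantile normalization there were 4 members without overlap. Over all genes, the number called was 15 with no filter on dim genes, 0 with every feature tested, 238 with a variance trend, 17 with embryo sex as a covariate, and 9 to 881 when 1 array was left out (9 on dropping either control, 262 on dropping mutant 1, 881 on dropping mutant 2). With the replicate number as a block (replicate block) it was 116, with 0 members called. The labels do not say that equal numbers share a litter or day, and the deviations of equal numbers correlated at -0.16 over genes. A crossed replicate block, chosen after seeing the data and the same grouping as embryo sex, gave 17 genes and 0 members. Of 103 values for the 9 members tested under the alternatives, 92 kept direction and call, 5 were newly called and 6 changed sign. Wfs1 became 0.00229 after further quantile normalization. When 1 array was left out the differences ranged as follows: Zbtb20 from -0.70 to -0.10, Lef1 from -0.45 to -0.16, Prox1 from -0.89 to -0.0897, Lhx9 from -1.18 to 0.29, Wfs1 from -0.15 to 0.0927, Fibcd1 from -0.0295 to 0.10, Nr3c2 from -0.45 to -0.0438, Grp from -0.33 to -0.17, Cadps2 from -0.54 to -0.0321 and Wnt8b from -0.38 to 0.30. The cause was not tested. The stricter filter left 4 members, Zbtb20, Prox1, Nr3c2 and Grp, and Wnt8b was tested only without a filter or over every feature (adjusted p = 0.979 and 0.988 in limma). The number of arrays, and for Wnt8b its low signal, limit these values.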

Other observations

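Some genes outside the hippocampal list, chosen after their values were seen, also differed widely between the mutants and are given without a test. They are a selection and not the widest gaps in order. The gaps of B130024G19Rik (-1.81) and Pcdh11x (-1.59) were wider than that of Nr2f2 (-1.54). Others, such as Sst (-1.28) and Dcn (-1.13), lay between those of Nrp2 (-1.47) and Zic2 (-1.04). Nr2f2, the nuclear receptor COUP-TFII of the caudal and medial cortex and of interneurons, was at 9.15 in mutant 1 and 10.7 in mutant 2, against 10.5 and 10.7 in controls. Fezf1, a zinc finger factor of the forebrain, was at 6.29 and 7.91 in mutants, against 7.35 and 7.83 in controls. Nrp2, a semaphorin receptor that guides hippocampal axons, was at 8.95 and 10.4 in mutants, against 10.3 and 10.3 in controls. Htr2c, a serotonin receptor, was at 5.94 and 7.42 in mutants, against 7.31 and 7.60 in controls. Zic2, a zinc finger factor of the dorsal midline, was at 6.99 and 8.03 in mutants, against 8.12 and 8.11 in controls.

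Neurod1, Calb1 and Emx2, of the dentate and pallial patterning lists, were also chosen after their values were seen. Over those lists, mutant 1 was lower than mutant 2 for 12 of 18 dentate and 11 of 15 patterning genes tested. These counts lie near the share over all genes tested, 64.07%, so they do not set the lists apart. The members, at 8 of 9, did not stand alone. Mutant 1 was also lower for 15 of 17 interneuron and 14 of 16 endothelial genes, lists that hold members. The same held for 8 of 10 Cajal-Retzius genes, but for only 6 of 19 neocortical neuron and 2 of 11 striatal genes. Pdzd2 of the dentate list was higher in mutant 1 than in mutant 2, at 7.99 and 7.74 in mutants, against 7.58 and 7.56 in controls. Neurod1, a bHLH factor of granule neuron differentiation, was at 9.12 and 10.1 in mutants, against 9.91 and 10.3 in controls. Calb1, a calcium buffer of granule neurons, was at 7.66 and 8.95 in mutants, against 8.72 and 9.06 in controls. Emx2, a homeodomain factor needed for the hippocampus in mouse, was at 6.70 and 7.56 in mutants, against 7.80 and 7.86 in controls. For Emx2 both mutants were lower than both controls, whereas for Neurod1 and Calb1 mutant 2 lay between the controls.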
